A study of Mus musculus with 10 samples.

Results

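The genes described here encode the cyclin E-CDK2 kinase (Ccne1, Ccne2 and Cdk2), the kinases that inhibit it and its mitotic relative (Wee1 and Pkmyt1), the phosphatases that release that inhibition (Cdc25a and Cdc25b), and the checkpoint kinases that watch over DNA replication (Atr, Chek1 and Chek2). They were taken by name from the deposited count table, in which all 10 were found among 56750 features. RNA was measured in hind limb sarcomas of dFLEx CDS mice and compared with sarcomas of KP mice. The dFLEx group held 3 tumors (170019, 170024 and 170025), each with 2 libraries, and the KP group held 2 tumors (3800 with 2 libraries and 3802 with 1). Duplicate libraries came from 1 RNA preparation of a tumor, so they were summed and the tumor was the replicate. Of tumor 3802, the second duplicate was not analysed here.

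The dFLEx mice carried a single copy (dFLEx CDS +/-) of a CIC::DUX4 construct with an HA tag in the Rosa26 locus, driven by the ubiquitous CAG promoter. The construct comes into frame only after both Cre and FLP have acted, and tumors arose after plasmids for the 2 recombinases (pCAG-Cre and pCAG-FLPE) were electroporated into the gastrocnemius. The KP mice carried p53fl/fl, a floxed Trp53, and their mode of induction is not given in the sources used here. The groups therefore differ by CIC::DUX4, by the alleles of the KP model and by model, which cannot be told apart. Ages at collection and sexes were not given per tumor in the sources used here.

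Cyclin E binds CDK2 at the end of G1 and drives the start of DNA replication. WEE1 and PKMYT1 hold cyclin-dependent kinases inactive by phosphorylation, WEE1 in the nucleus and PKMYT1 at internal membranes, and CDC25 phosphatases remove those marks. When replication forks stall, ATR activates CHK1, which marks CDC25A for destruction and so keeps CDKs inhibited. CHK2 does related work downstream of ATM after double-strand breaks. Much of this control acts on protein stability and phosphorylation, and the values here are RNA levels only.

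In these tumors Cdc25a stood furthest apart. Its level was higher in each dFLEx tumor than in either KP tumor, 3.38-fold in the fitted comparison. Cdk2 and Pkmyt1 were also higher in all 3 dFLEx tumors than in both KP tumors, by 1.94-fold and 2.19-fold. The other 7 genes overlapped between groups, among them both cyclin E genes, Wee1 and all 3 checkpoint kinases. No gene passed an adjusted p of 0.05 in edgeR with the tumor as replicate (0 of 10), where the share over all 24743 tested genes was 0.182%. At an unadjusted p under 0.05 there was 1 of 10, Cdc25a, against 10.6% of all tested genes, and 0 of 10 were also called by DESeq2 on tumor sums (6.07% of all tested genes) and by limma-voom with a random effect of tumor (2.78%). Groups that did not overlap, with dFLEx higher, were seen in 3 of 10 genes against 13.7% of all tested genes, and with dFLEx lower in 0 of 10 against 11.7%. These are bulk tumors, in which fewer cells of a type and less RNA per cell cannot be told apart.

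The upstream sequence is shown for Cdc25a because it had the largest difference between groups, for Cdk2 because its window held an E2F match, and for Wee1 as a gene whose groups overlapped. Windows end at the base before the start of the GENCODE M39 canonical transcript and were read from GRCm39 in the direction of transcription. Gene spans given further on are those of the deposited table's own annotation, whose starts can differ from these. The Cdc25a window is the 250 bases at chr9:109704333-109704582 on the plus strand, outside any annotated exon or gene. The Cdk2 window is the 100 bases at chr10:128540964-128541063 on the minus strand, of which 15 lie in an exon of Pmel on the other strand. The Wee1 window is the 100 bases at chr7:109721048-109721147 on the plus strand. It holds no annotated exon but overlaps the gene 1600010M07Rik on the other strand. Capitals mark a CIC octamer in Cdc25a and an E2F octamer in Cdk2, each on the strand opposite to the gene.
Cdc25a: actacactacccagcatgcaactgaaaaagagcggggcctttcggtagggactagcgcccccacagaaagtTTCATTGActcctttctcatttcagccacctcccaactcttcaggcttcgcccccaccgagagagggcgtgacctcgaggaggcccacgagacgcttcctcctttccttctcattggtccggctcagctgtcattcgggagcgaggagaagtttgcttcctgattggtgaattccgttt
Cdk2: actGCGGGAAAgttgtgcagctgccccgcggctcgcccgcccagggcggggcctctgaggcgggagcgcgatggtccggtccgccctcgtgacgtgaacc
Wee1: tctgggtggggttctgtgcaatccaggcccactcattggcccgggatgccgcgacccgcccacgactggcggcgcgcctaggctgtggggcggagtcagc

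Motifs were searched on both strands of the 250 bases upstream of the canonical transcript start of each gene. Several of these windows held annotated exons. All 250 bases were exonic for Cdc25b (its own), Chek1 (its own and Gm69295) and Atr (1700065D16Rik), and 215 for Ccne2 (its own). In Cdk2 105 bases lay in exons of Pmel, and in Chek2 114 in exons of Hscb. Fewer were exonic in Pkmyt1 (52, its own), Wee1 (50, Gm45819) and Ccne1 (36, its own), and 0 in Cdc25a. The counts below are therefore not of promoters alone. The CIC octamers (TGAATGAA, TGAATGGA, TCAATGAA and TCAATGGA), which CIC and the CIC::DUX4 fusion are known to bind, occurred in 1 of 10 windows. That match was TCAATGAA in Cdc25a, 179 to 172 bases before the start, and 3.04% of 21770 windows of protein-coding genes held such an octamer. The E2F octamers (TTTCCCGC, TTTCGCGC, TTTGCCGC and TTTGGCGC), letters of the sites of the G1/S transcription factors, occurred in 2 of 10 windows against 2.28% of all. Both were TTTCCCGC, in Cdk2 97 to 90 bases and in Chek2 129 to 122 bases before the start. The CCAAT box occurred in 4 of 10 (Wee1, Pkmyt1, Cdc25a and Chek2) against 36.5%, and overlapped none of these octamers. The letters TTTGAA of the cell cycle homology region occurred in 0 of 10 windows against 15.6%. A match is a description of letters, not a binding site.

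Levels are counts scaled to a common library total (CPM), with TMM factors between tumors. Counts behind them ran from 102 (Atr in a library of 170019) to 4766 (Cdc25a in a library of 170025). All therefore lay well above a floor of 3 counts, which covers counting error only. Stray reads are a separate limit. In KP tumor 3802 they would make up 42.8% of the Atr level, as described with that gene. Duplicate libraries of a tumor lay close together. Over 4 pairs of duplicates, the median log2 difference ran from 0.03 in Wee1 to 0.21 in Pkmyt1, and the largest was 0.55 (Chek1 in 170019). Tumors of a group lay further apart than duplicates, apart from Pkmyt1 among dFLEx tumors (SD 0.14, log2 scale), and most of all in Wee1 among dFLEx tumors (SD 0.97, log2 scale) and in Cdc25b between KP tumors (a gap of 2.17, log2 scale).

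**Figure D1:**
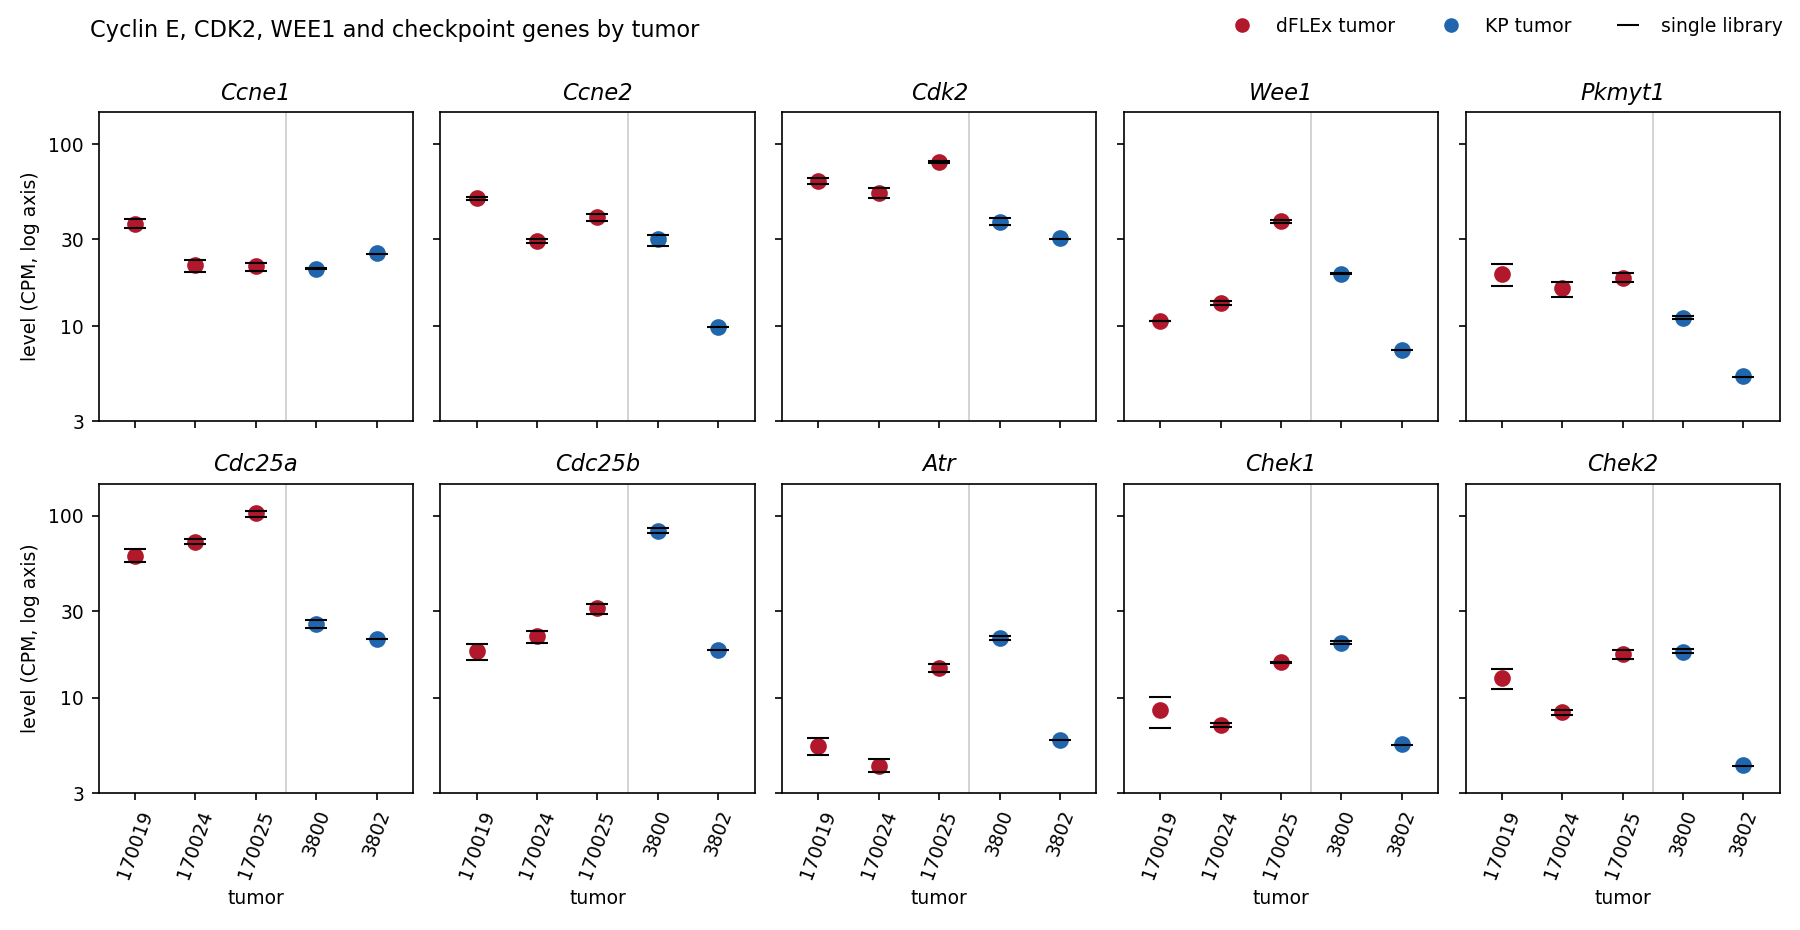
Level of each gene in CPM (log axis) in the 3 dFLEx tumors (red) and 2 KP tumors (blue). Points are summed duplicates and dashes are single libraries. Cdk2, Pkmyt1 and Cdc25a are higher in all dFLEx tumors, and 3802 is lowest in 7 of the 10 genes.

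Among the cyclin E-CDK2 genes, Ccne1 had the smallest log2 fold change. Ccne1 (chr7:37797409-37806959, minus strand), one of the cyclins E that activate CDK2, had 36.4, 21.6 and 21.3 CPM in dFLEx tumors 170019, 170024 and 170025, and 20.7 and 25.1 CPM in KP tumors 3800 and 3802. Only 170019 stood above the rest, and the groups overlapped. Means were 26.5 ± 8.63 CPM (SD, n = 3) and 22.9 ± 3.09 CPM (SD, n = 2), with a log2 fold change of 0.21 (SE 0.58, edgeR adjusted p 0.959). Its sign turned without 170019 (-0.15), on library totals in place of TMM (-0.12) and after removal of GC and length trends (-0.38).

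Ccne2 (chr4:11191351-11204779, plus strand), the second cyclin E, had 50.4, 29.5 and 39.8 CPM in dFLEx tumors, beside 30.1 and 9.87 CPM in KP tumors. The KP tumor 3800 lay just above the lowest dFLEx tumor, and 3802 was far below all others. Means of 39.9 ± 10.4 CPM (SD, n = 3) and 20.0 ± 14.3 CPM (SD, n = 2) gave a log2 fold change of 1.00 (SE 0.69, edgeR adjusted p 0.774). The estimate was 2.18 against 3802 alone and 0.43 against 3800 alone. The narrow overlap was lost after background subtraction (29.2 CPM in 170024 against 28.5 in 3800) and after removal of GC and length trends (29.1 against 26.3). Of its exonic bases, 17.4% are shared with Ints8 on the other strand, where reads were not counted.

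Cdk2 (chr10:128533808-128540900, minus strand), the kinase partner of both cyclins, had 62.9, 54.1 and 79.6 CPM in dFLEx tumors, beside 37.4 and 30.3 CPM in KP tumors. All 3 dFLEx tumors lay above both KP tumors, the closest pair, 170024 and 3800, being 1.45-fold apart. Means were 65.5 ± 12.9 CPM (SD, n = 3) and 33.9 ± 5.01 CPM (SD, n = 2), with a log2 fold change of 0.95 (SE 0.56, edgeR adjusted p 0.684). It stayed between 0.78 and 1.28 when any 1 tumor was left out.

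The inhibitory kinases differed from each other in how their tumors were ordered. Wee1 (chr7:109721253-109742493, plus strand), which phosphorylates CDK1 and CDK2, had 10.6, 13.4 and 37.6 CPM in dFLEx tumors, beside 19.4 and 7.40 CPM in KP tumors. One dFLEx tumor, 170025, had 3.53 times the level of 170019, and the groups overlapped. Means of 20.5 ± 14.8 CPM (SD, n = 3) and 13.4 ± 8.52 CPM (SD, n = 2) gave a log2 fold change of 0.61 (SE 0.79, edgeR adjusted p 0.904). Without 170025 it was -0.16, and against 3800 alone it was 0.10.

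Pkmyt1 (chr17:23945310-23955709, plus strand), the membrane-bound relative of WEE1 that acts mainly on CDK1, had 19.4, 16.1 and 18.4 CPM in dFLEx tumors, beside 11.1 and 5.28 CPM in KP tumors. The dFLEx tumors lay within 1.20-fold of each other, the narrowest range among the 10 genes, and all were above both KP tumors. Means were 18.0 ± 1.67 CPM (SD, n = 3) and 8.21 ± 4.14 CPM (SD, n = 2), with a log2 fold change of 1.13 (SE 0.63, edgeR adjusted p 0.650). The estimate was 0.71 against 3800 alone and 1.93 against 3802 alone. Of its exonic bases, 8.76% are shared with Paqr4.

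The phosphatases went opposite ways in their estimates. Cdc25a (chr9:109704647-109722963, plus strand), which activates cyclin E-CDK2 at the G1/S transition, had 60.5, 72.0 and 103 CPM in dFLEx tumors, beside 25.4 and 21.1 CPM in KP tumors. Both KP tumors were low, and 170019, the lowest of the dFLEx tumors, had 2.38 times the level of 3800. Means of 78.6 ± 22.1 CPM (SD, n = 3) and 23.2 ± 3.03 CPM (SD, n = 2) gave a log2 fold change of 1.76 (SE 0.59, edgeR adjusted p 0.317). Before adjustment its edgeR p was 0.018. With any 1 tumor left out it ran from 1.50 to 2.07.

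Across the dFLEx tumors Cdc25a had the same order as the CIC_DUX4 feature of the construct, which had 89.3, 192 and 409 CPM on library totals in 170019, 170024 and 170025, 0 counts in 3800 and 6 counts in 3802. The share of counts in genes of over 8000 exonic bases had that order too, at 6.85%, 10.1% and 19.0%, and Cdc25a itself is 8023 bases long. With trends of GC content and length taken out of each tumor, Cdc25a had 83.7, 72.1 and 67.8 CPM in dFLEx tumors, beside 20.5 and 29.8 CPM in KP tumors. The order within dFLEx was then turned around, while the groups still did not overlap (log2 fold change 1.57, SE 0.42, adjusted p 0.102, edgeR). No relation was computed over 3 tumors.

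Cdc25b (chr2:131028869-131040417, plus strand), which activates cyclin-dependent kinases before mitosis, had 18.0, 21.8 and 31.3 CPM in dFLEx tumors, beside 83.0 and 18.4 CPM in KP tumors. Only 3800 was high, at 4.50 times the level of 3802, and 3802 lay inside the dFLEx range. Means were 23.7 ± 6.83 CPM (SD, n = 3) and 50.7 ± 45.7 CPM (SD, n = 2), with a log2 fold change of -1.10 (SE 0.73, edgeR adjusted p 0.758). Against 3802 alone the sign turned, to 0.53.

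In all 3 checkpoint kinases 3800 was highest and 170025 second. The share of counts in genes of over 8000 exonic bases was also highest in these tumors, 20.2% in 3800 and 19.0% in 170025 against 6.85% to 10.1% in the others, and its part in these levels was not tested. Tumor 3802 was lowest in Chek1 and Chek2 and lay above 170019 and 170024 in Atr. Atr (chr9:95739650-95833834, plus strand), the kinase that senses single-stranded DNA at stalled forks, had 5.42, 4.23 and 14.5 CPM in dFLEx tumors, beside 21.3 and 5.89 CPM in KP tumors. Its levels within each group spanned over 3-fold, 3.43-fold among dFLEx tumors and 3.61-fold between KP tumors. Means of 8.06 ± 5.63 CPM (SD, n = 3) and 13.6 ± 10.9 CPM (SD, n = 2) gave a log2 fold change of -0.75 (SE 0.81, edgeR adjusted p 0.886), and without 3800 it was 0.63.

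Atr has 23629 exonic bases in the table, the longest of the set, and so collects the most stray reads. Genes for olfactory and vomeronasal receptors, which a sarcoma should not express, gave 0.128 CPM per kilobase in 3802 against 0.0027 to 0.020 in the other tumors. At that rate 42.8% of the Atr level in 3802 would be background, and between 1.13% and 8.88% of the levels of the other 9 genes. With this background subtracted Atr had 3.81 CPM in 3802 and 20.1 CPM in 3800. With GC and length trends removed, Atr had 9.10, 5.43 and 10.4 CPM in dFLEx tumors, beside 13.8 and 6.11 CPM in KP tumors, a narrower spread.

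Chek1 (chr9:36619778-36638361, minus strand), the effector kinase of ATR, had 8.53, 7.09 and 15.7 CPM in dFLEx tumors, beside 20.1 and 5.57 CPM in KP tumors. The KP tumors were the highest and the lowest of the 5. Means were 10.4 ± 4.59 CPM (SD, n = 3) and 12.8 ± 10.3 CPM (SD, n = 2), with a log2 fold change of -0.30 (SE 0.74, edgeR adjusted p 0.952) that became 1.08 without 3800.

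Chek2 (chr5:110987845-111022011, plus strand), the effector kinase of ATM, had 12.9, 8.38 and 17.5 CPM in dFLEx tumors, beside 18.0 and 4.27 CPM in KP tumors. Here too both ends of the range were KP tumors. Means of 12.9 ± 4.54 CPM (SD, n = 3) and 11.1 ± 9.69 CPM (SD, n = 2) gave a log2 fold change of 0.21 (SE 0.76, edgeR adjusted p 0.971). It was 1.76 without 3800 and -0.46 without 3802.

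**Figure D2:**
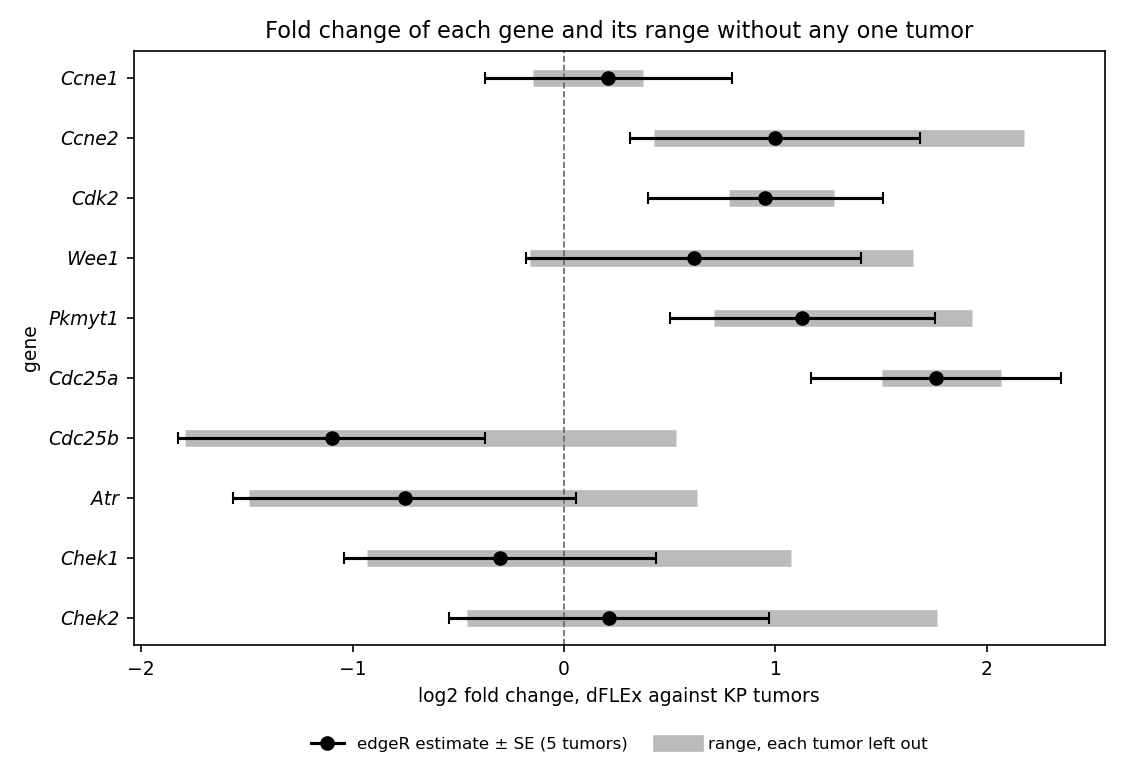
Log2 fold change of each gene, dFLEx against KP tumors (points, bars are the SE of edgeR), with the range obtained when each tumor was left out in turn (grey). For Ccne2, Cdk2, Pkmyt1 and Cdc25a the grey range stays above 0, and for the other 6 genes it crosses 0.

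The median log2 fold change over the 10 genes was 0.41, beside -0.18 over all tested genes. It rested on the KP tumor used. Without 3800 all 10 estimates were above 0, with a median of 1.46 (all genes -0.07), and without 3802 there were 6 above 0, with a median of 0.23 (all genes 0.34). Scaling moved the median of all genes to -0.47 on library totals, -0.34 with the upper quartile and -0.26 with DESeq2 size factors, and that of the 10 genes to 0.18, 0.38 and 0.37.

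When the 9 libraries were treated as independent samples, which counts duplicates as replicates, 4 of 10 genes passed an adjusted p of 0.05 in edgeR (17.1% of all tested genes) and the same count in DESeq2 (19.6%). In both fits these were Cdk2, Pkmyt1 and Cdc25a, higher in dFLEx tumors, and Cdc25b, lower. With the duplicate number added as a block, 1 of 10 passed (12.7% of all tested genes), Cdc25a, at an adjusted p of 0.0067 (edgeR). Duplicates share 1 tumor's RNA, so the fit on tumors was used for the calls above.

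Per kilobase of exon, levels can be set side by side between genes. The length was that of all annotated exonic bases (23629 in Atr and 4635 in Chek1), including bases shared with other genes. The order therefore also depends on the annotation. Averaged over all 5 tumors, Ccne1 (9.40 CPM per kilobase), Cdc25b (9.26), Ccne2 (9.13) and Cdk2 (8.50) headed the set, followed by Cdc25a (7.04), Wee1 (5.17), Chek2 (4.06), Pkmyt1 (3.86), Chek1 (2.46) and Atr (0.435). The place of Cdc25b rested on 3800, at 22.3 CPM per kilobase against 4.83 to 8.39 in the other tumors. Neighbours in this order did not differ beyond their spread over tumors, apart from Chek1 against Atr, where Atr ran from 0.179 to 0.901 and Chek1 from 1.20 to 4.34 CPM per kilobase. In dFLEx tumors Ccne2, Cdk2, Ccne1 and Cdc25a were near one level, at 11.4 ± 2.98, 10.5 ± 2.08, 9.94 ± 3.24 and 9.80 ± 2.76 CPM per kilobase (SD, n = 3). In KP tumors Cdc25a was at 2.90 ± 0.378 and Ccne1 at 8.60 ± 1.16 CPM per kilobase (SD, n = 2).

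Ratios of paired genes within a tumor do not depend on scaling between tumors. The ratio of Cdc25a to Cdc25b per kilobase was 1.56, 1.54 and 1.53 in the 3 dFLEx tumors, and 0.142 in 3800 and 0.531 in 3802. The dFLEx tumors were thus nearly equal in this ratio, although both levels varied 1.71-fold and 1.74-fold among them. The near equality depended on the processing, since with GC and length trends removed the ratios were 2.03, 1.64 and 1.22, a 1.66-fold range. The groups did not overlap, with a log2 difference of 2.49 (5.62-fold, exact two-sided permutation p = 0.2, Benjamini-Hochberg adjusted 0.5 over 5 ratios). Without 3800, whose Cdc25b was high, the difference was 1.54.

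The ratio of Chek1 to Chek2 was 0.429, 0.548 and 0.581 in dFLEx tumors and 0.725 and 0.845 in KP tumors. This ratio was lower in each dFLEx tumor than in either KP tumor (log2 difference -0.60, exact permutation p = 0.2, adjusted 0.5), though the levels of each gene overlapped. With GC and length trends removed the groups overlapped (-0.20, exact permutation p = 0.8). With 3 tumors against 2 there are 10 arrangements, and 0.2 is the smallest two-sided p they can give. The share of other gene pairs without overlap was not computed, so the 2 of 5 ratios without overlap have no background beside them.

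The other 3 ratios overlapped between groups. Ccne1 to Ccne2 was 0.950, 0.962 and 0.704 in dFLEx tumors, 0.904 in 3800 and 3.33 in 3802, so that Ccne1 prevailed only in 3802. Ccne1 to Cdk2 was 1.35, 0.934 and 0.626 in dFLEx tumors and 1.29 and 1.93 in KP tumors. Wee1 to Pkmyt1 was 0.585, 0.884 and 2.18 in dFLEx tumors and 1.86 and 1.49 in KP tumors, with 170025 set apart from the other dFLEx tumors. Exact two-sided permutation p-values for these 3 were 0.6, 0.4 and 0.6, each 0.6 after adjustment over the 5 ratios. With GC and length trends removed, Ccne1 to Ccne2 (log2 difference -1.41) and Ccne1 to Cdk2 (-1.31) were lower in every dFLEx tumor than in both KP tumors, each with an exact permutation p of 0.2, the smallest possible.

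Because the genes act in the control of the cell cycle, they were also set against a summed list of 9 proliferation genes (Mki67, Top2a, Pcna, Bub1, Aurka, Tyms, Rrm2, Birc5 and Tk1). That sum was 1466, 940 and 1131 CPM in dFLEx tumors, 1130 in 3800 and 515 in 3802, and 0 of the 9 genes passed an adjusted p of 0.05 in edgeR (1 at an unadjusted p under 0.05, against 10.6% of all tested genes). Tk1 made up much of it in 1 tumor, with 704, 306 and 203 CPM in dFLEx tumors, beside 109 and 120 CPM in KP tumors. Relative to the sum, Cdc25a was 4.12%, 7.67% and 9.13% in dFLEx tumors and 2.25% and 4.10% in KP tumors, so 170019 and 3802 were almost equal. Pkmyt1 was 1.32%, 1.72% and 1.63% in dFLEx tumors and 0.986% and 1.03% in KP tumors, and Ccne2 was 3.43%, 3.14% and 3.52% against 2.66% and 1.92%. Cdc25b was 1.23%, 2.32% and 2.76% in dFLEx tumors and 7.35% and 3.58% in KP tumors, the only gene lower in every dFLEx tumor. These 4 genes did not overlap between groups, each with an exact permutation p of 0.2, the smallest possible (adjusted 0.5 over 10 genes). The share of all tested genes without overlap on this scale was not computed, so the count of 4 has no background beside it. The separation of Cdc25a was lost with the first library of each tumor (exact permutation p = 0.4) and that of Pkmyt1 with GC and length trends removed (log2 difference 0.35, p = 0.4), while Ccne1 gained one with those trends removed (-0.86, p = 0.2).

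Cdk2 lost its separation on this scale, at 4.29%, 5.76% and 7.04% in dFLEx tumors and 3.31% and 5.89% in KP tumors (exact permutation p = 0.6, adjusted 0.857). This rested on Tk1. Without Tk1 in the sum, a choice made after its values were seen, Cdk2 was 8.25%, 8.53% and 8.58% in dFLEx tumors and 3.67% and 7.68% in KP tumors, again without overlap (exact permutation p = 0.2). This separation of Cdk2 was lost with the first library of each tumor and with GC and length trends removed. Without Tk1, Cdc25a was 7.93% in 170019 and 5.34% in 3802, but its groups overlapped with the first library of each tumor. On the full sum, the groups overlapped for Ccne1, Wee1, Atr, Chek1 and Chek2 as well, with exact permutation p-values of 0.4 to 1 over the 10 tests. Among the checkpoint kinases 3802 was then lowest in Chek2 (0.829%) and not in the other two. Atr was 1.14% there and 1.88% in 3800, against 0.370%, 0.450% and 1.28% in dFLEx tumors.

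**Figure D3:**
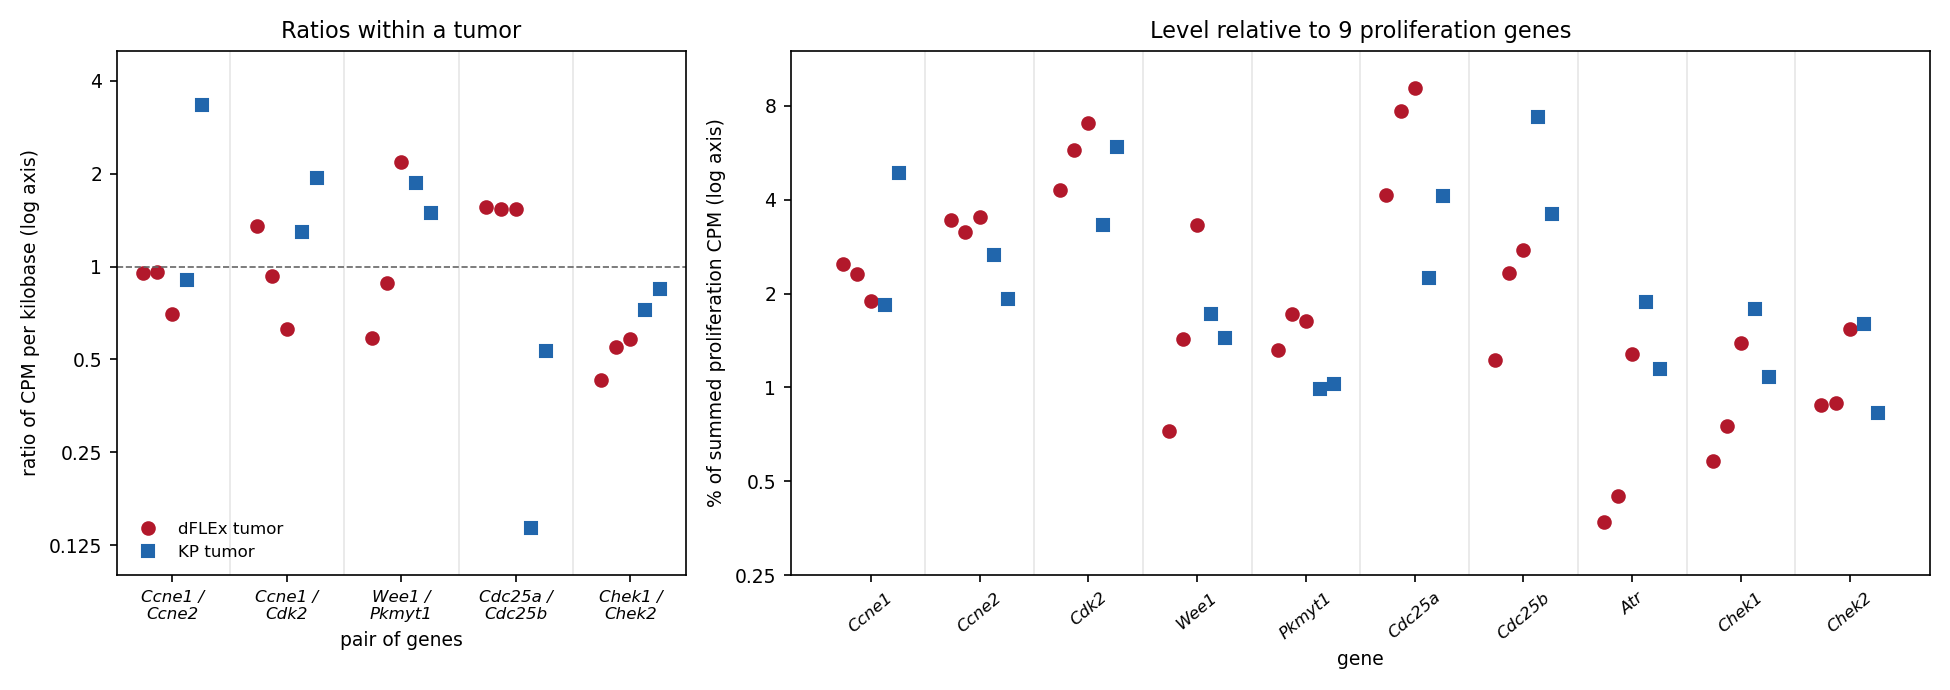
Left, ratios of CPM per kilobase of paired genes within a tumor. Right, level of each gene as a percent of the summed CPM of 9 proliferation genes (both log axes, dFLEx tumors as red circles from left to right 170019, 170024 and 170025, KP tumors as blue squares 3800 and 3802). The ratio of Cdc25a to Cdc25b lies between 1.53 and 1.56 in dFLEx tumors and below 1 in both KP tumors.

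The wider pathway was described by 83 genes in 6 lists, of which 0 passed an adjusted p of 0.05 in edgeR on tumors (0.182% of all tested genes). At an unadjusted p under 0.05 there were 4 of 83, against 10.6%. DESeq2 on tumor sums called 1 of the 83, against 6.07% of all tested genes, and limma-voom 2, against 2.78%. Groups did not overlap with dFLEx higher in 8 and with dFLEx lower in 2 of 83, against 13.7% and 11.7% of all tested genes. The median log2 fold change was 0.07, but 1.04 without 3800 and -0.29 without 3802.

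Partners of ATR and CHK1 (13 genes, such as the clamp, claspin and RPA subunits) had 8 estimates above 0 and 5 below, with a median of 0.30 (1.23 without 3800). The extremes were Timeless, a fork protection protein (log2 fold change 1.06, SE 0.66, adjusted p 0.721, edgeR), and Rad9a, a subunit of the clamp (-0.32, SE 0.64, adjusted p 0.943). Timeless had 30.7, 46.3 and 86.7 CPM in dFLEx tumors, beside 29.7 and 22.7 CPM in KP tumors.

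In the ATM arm (9 genes) 8 estimates were below 0 and the median was -0.39. That median turned to 1.47 without 3800 and was -1.05 without 3802. The exception was H2ax, the histone phosphorylated around double-strand breaks, with 249, 249 and 179 CPM in dFLEx tumors, beside 39.9 and 53.5 CPM in KP tumors. Its groups did not overlap, and its log2 fold change of 2.27 (SE 0.58, edgeR adjusted p 0.187) had the smallest adjusted p of the 83 genes. Atm itself, the apex kinase, had 3.31, 2.34 and 19.4 CPM in dFLEx tumors, beside 39.1 and 5.36 CPM in KP tumors (log2 fold change -1.41, SE 1.11, adjusted p 0.825), high in the same 2 tumors as Atr.

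Other CDK regulators (15 genes) had 10 estimates above 0 and a median of 0.38 (0.84 without 3800 and 0.16 without 3802). Cdkn1c, the CDK inhibitor p57, had 1404, 893 and 678 CPM in dFLEx tumors, beside 90.3 and 291 CPM in KP tumors (log2 fold change 2.38, SE 0.73, adjusted p 0.264, edgeR). Wee2, the germ-line relative of Wee1, was at or below 1.99 CPM in all tumors, with 0 in 3800, and its estimate is therefore not read.

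In the E2F-RB list (13 genes) 8 estimates were below 0, with a median of -0.47. Here too the median turned without 3800, to 0.67, and was -1.23 without 3802. E2f3 had 34.5, 44.3 and 103 CPM in dFLEx tumors, beside 37.6 and 12.5 CPM in KP tumors (log2 fold change 1.27, SE 0.78, adjusted p 0.715, edgeR). E2f5 had 4.68, 4.40 and 5.15 CPM in dFLEx tumors, beside 18.8 and 7.52 CPM in KP tumors (log2 fold change -1.47, SE 0.63, adjusted p 0.467). E2f2 was lower in each dFLEx tumor (11.3, 14.5 and 15.2 CPM) than in either KP tumor (36.3 and 36.9 CPM). Its log2 fold change of -1.42 (SE 0.54, edgeR adjusted p 0.402) had the smallest adjusted p of the list. E2f1 had a log2 fold change of 0.03 (SE 0.59, edgeR adjusted p 0.994).

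Genes for the turnover of cyclin E, WEE1 and CDC25A (11 genes, ubiquitin ligase subunits, Usp28 and Plk1) spanned the narrowest range, from Fbxw7 (log2 fold change -0.25, SE 0.61) to Rbx1 (0.52, SE 0.68), with a median of 0.23 (0.79 without 3800 and -0.10 without 3802). FBXW7 is the receptor through which cyclin E is degraded, and its gene had 11.8, 26.3 and 24.5 CPM in dFLEx tumors, beside 21.9 and 27.9 CPM in KP tumors. Origin licensing and firing genes (22 genes, from Orc1 to Recql4) had 14 estimates above 0 and a median of 0.14 (1.12 without 3800 and -0.30 without 3802). Their extremes were Gmnn, the inhibitor of licensing (1.08, SE 0.68), and Dbf4, the activator of CDC7 (-0.89, SE 0.66).

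**Figure D4:**
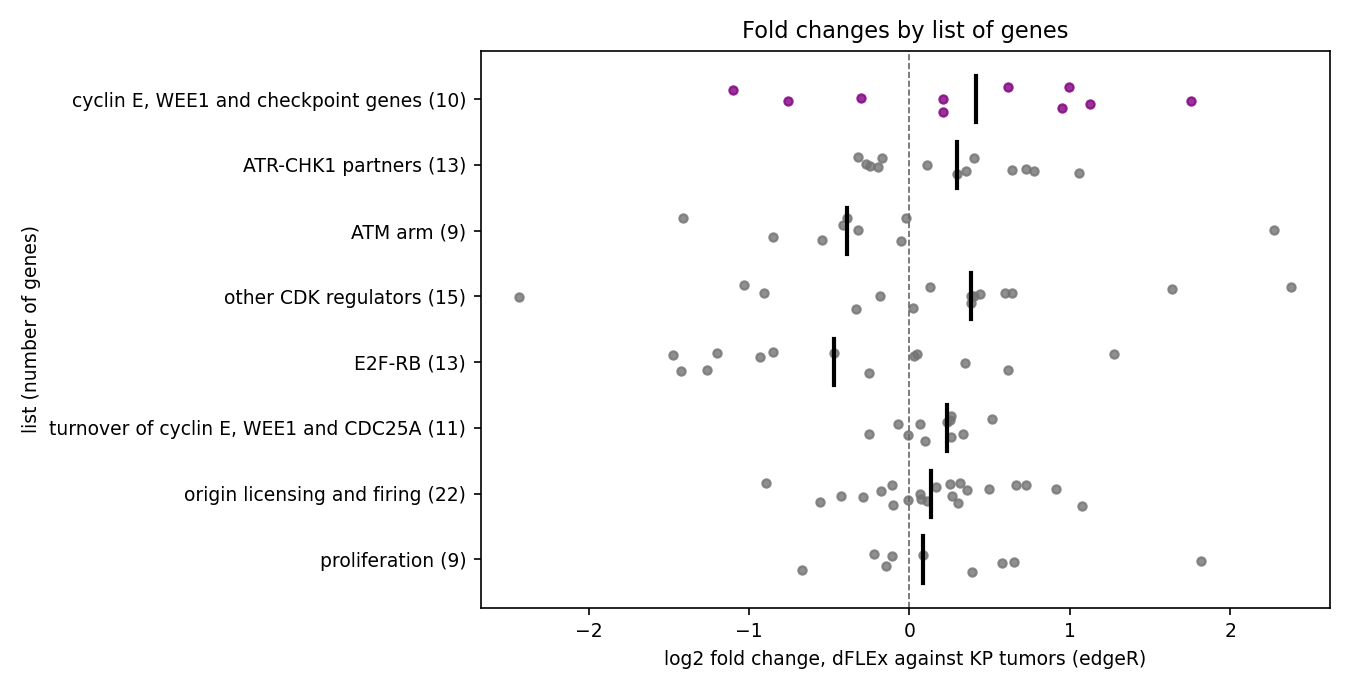
Log2 fold changes, dFLEx against KP tumors (edgeR), of the cyclin E, WEE1 and checkpoint genes (purple) and of the genes of 6 pathway lists and the proliferation list (grey, 1 point a gene, vertical bars are medians, vertical position within a row carries no value). Medians run from -0.47 in the E2F-RB list to 0.41 in the top row, and H2ax, Cdkn1c, Tk1 and Cdc25a lie far to the right.

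The genes most like each other over the 5 tumors were named by the root mean square difference of log2 CPM after centring, among 101 genes of these lists. Cdc25a was nearest to Cdk2 (0.41) and Pkmyt1 (0.44), the other genes whose groups did not overlap, though its nearest gene was further away than that of any other of the 10. Cdk2 was nearest to Cdc7 (0.23) and Cdc25c (0.28). Ccne1 went with Tipin and E2f1 (both 0.21), while Ccne2 went with Pkmyt1 (0.24) and Mcm7 (0.25), and Pkmyt1 with Mcm7 (0.22) and Ccne2 (0.24).

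Wee1 was nearest to Cdc6 (0.24) and Usp28 (0.33), and Cdc25b to Dbf4 (0.22) and Ccna2 (0.23). The closest matches of all were those of the checkpoint kinases ATR and CHK1. Atr was 0.09 from Rbl1 and 0.16 from Ccna2, and Chek1 was 0.09 from Recql4 and 0.12 from Tfdp1. Chek2 was nearest to Cdkn1b and Rrm2 (both 0.22). All genes were measured in the same 5 tumors, and the distances are a description without a test.

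Several sums of cell type markers also differed between the groups. No relation between these sums and the genes described above was computed. The summed level of 5 myocyte markers was 5761 to 23261 CPM in dFLEx tumors and 1048 to 2948 CPM in KP tumors, and 5 endothelial markers summed to 152 to 483 against 60.0 to 122 CPM. Sums of fibroblast (4 genes) and pericyte (4 genes) markers were also higher in all dFLEx tumors, at 1486 to 5440 against 809 to 1086 CPM and 572 to 973 against 82.4 to 338 CPM. Sums of macrophage (5 genes) and T cell (5 genes) markers were lower, at 127 to 283 against 366 to 389 CPM and 5.16 to 7.41 against 9.38 to 44.2 CPM. Single markers did not all follow their sums. Groups did not overlap, with dFLEx higher, in 4 of 5 myocyte, 1 of 5 endothelial, 2 of 4 fibroblast and 2 of 4 pericyte markers (13.7% of all tested genes). With dFLEx lower, they did not overlap in 3 of 5 macrophage and 3 of 5 T cell markers (11.7% of all tested genes). Tek, Dcn, Cspg4, Cd68 and Cd4, for example, overlapped between groups. In each of these lists 0 markers passed an adjusted p of 0.05 (edgeR), against 0.182% of all tested genes. At an unadjusted p under 0.05 there were 4 of 5 myocyte, 3 of 5 T cell, 2 of 5 macrophage and 2 of 4 fibroblast markers. Endothelial markers gave 1 of 5 and pericyte markers 1 of 4, where the share over all tested genes was 10.6%. None of these markers was at 0 in any tumor. B cell (3 genes) and erythroid (3 genes) sums overlapped between groups, at 2.02 to 2.84 against 0.497 to 18.3 CPM and 340 to 961 against 63.4 to 1452 CPM. The part of these cells in the levels of Cdc25a, Cdk2 and Pkmyt1 was not tested.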

How the data were processed

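Per the labels, RNA of flash-frozen tumors was split into duplicates and made into paired-end, rRNA-depleted libraries. The authors trimmed reads with Trimmomatic (0.39), aligned them with STAR (2.7.10a) to mm39 (GRCm39) extended by the CIC::DUX4 construct, and deposited raw counts per gene from featureCounts (Subread 2.0.3), without normalization. Per the file headers, strand was ignored, each mate was counted as a read, and reads with several alignments or over several genes were left out, so overlapping genes lose reads and antisense reads cannot be told apart. Of 10 labelled libraries 9 had a column, with totals of 20503474 to 46302223 counts, at which 3 counts are 0.0648 to 0.146 CPM. This floor covers counting error only. SDs are over tumors, and SEs come from the fit on tumor sums.

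Symbols came from GENCODE M39 (98.7% of features). Counts of a tumor's libraries were summed, filtered with filterByExpr, scaled by TMM and compared with edgeR (4.0.16) glmQLFit and glmQLFTest, at an adjusted p (Benjamini-Hochberg, all tested genes) of 0.05. SE was derived from the log2 fold change and the F statistic. Alternatives used DESeq2 (1.42.0), limma (3.58.1) and other scalings, filters and sets of tumors. The trend with GC content and length (loess, span 0.3, on genes averaging 1 CPM or more, GC known for 99.7%) was removed as an alternative chosen after seeing the data, as was the proliferation list without Tk1. Ratios used exact two-sided permutation tests over tumors (SciPy 1.17.1). The fit was tested on simulated data.

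The 10 genes and all lists were chosen with earlier results of these data known. Named were all 10 genes, from each pathway list the genes passing the threshold and those with the largest and smallest estimate, and for each of the 10 its 2 nearest genes. E2f2 was added for having the smallest adjusted p of its list. The study compared the groups with DESeq2 without stating its treatment of duplicates. Tumors are separate by their identifiers, and p-values measure the spread between them. A further part of the KP genotype is not reported here.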

Additional observations from a re-analysis of the deposited data

How the results depend on the processing

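There were 3 tumors against 2, and 3802 had 1 library of 20503474 counts. Genes with an adjusted p under 0.05 numbered 45 of all tested, and 3344 (edgeR) or 4815 (DESeq2) with libraries as independent samples, 1388 with DESeq2 on tumor sums, 543 with limma-voom, 880 without a filter on low counts, 80 at a mean of at least 1 CPM, 382 after GC and length trends were removed, and 0 to 414 with each tumor left out. Among the 10 genes the count was 0, but 4 in both fits on libraries, and among the 83 pathway genes it was 0, but 6 (edgeR) and 11 (DESeq2) on libraries, 1 with DESeq2 on tumor sums and 2 with limma-voom. Correlations of deviations between dFLEx and KP libraries of the same duplicate number ran from -0.66 to 0.66 over 9 pairs. Pairs of different number were not compared, so this range cannot tell whether the duplicate number pairs the samples. With the number as a replicate block on libraries, 2476 of all genes, 1 of the 10 and 4 of the 83 were called, and Chek2 was at -0.028. The log2 fold change of Chek2 also turned on libraries (-0.027 in edgeR, -0.039 in DESeq2), on library totals (-0.026) and without GC and length trends (-0.0070), and that of Ccne1 on library totals (-0.12) and without those trends (-0.38). With each tumor left out, estimates ran from -0.15 to 0.37 for Ccne1, -0.16 to 1.65 for Wee1, -1.79 to 0.53 for Cdc25b, -1.49 to 0.63 for Atr, -0.93 to 1.08 for Chek1 and -0.46 to 1.76 for Chek2. Relative to proliferation the log2 differences ran from -1.14 to 0.27 for Ccne1, -0.078 to 0.75 for Cdk2, -0.63 to 0.47 for Wee1 and -0.58 to 0.36 for Chek2, and with the mean log2 level of the list they were 0.16 for Wee1 and 0.11 for Chek2. Without Tk1 in that list they were 0.27 and 0.23. The log2 fold changes of Ccne2, Cdk2, Pkmyt1 and Cdc25a and the 5 ratios kept their sign under all alternatives run. Levels of Cdk2, Pkmyt1 and Cdc25a stayed without overlap after background subtraction and with GC and length trends removed. The ratio of Cdc25a to Cdc25b also stayed so with those trends removed, but the separation of other ratios changed. With GC and length trends removed Chek1 to Chek2 overlapped (-0.20), while Ccne1 to Ccne2 (-1.41) and Ccne1 to Cdk2 (-1.31) no longer did. Ccne1 to Ccne2 ran from -1.95 to -0.067 with each tumor left out. The causes were not tested.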
